A study of Bos taurus with 39 samples.

Results

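The miRNAs described here are 7 mature bovine miRNAs that are often linked to the granulosa and cumulus cells of the follicle. They are bta-miR-143, bta-miR-145, bta-miR-202, bta-miR-132, bta-miR-212, bta-miR-221 and bta-miR-222. They were chosen by name from the table of known mature miRNAs, 7 of 1995 miRNAs counted in all (1030 known and 965 predicted). At least 1 count was found for 6 of them.

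The libraries came from bovine oocytes of slaughterhouse ovaries, each library made from a pool of oocytes, and the study asked whether miRNAs pass between cumulus cells and the oocyte through gap junctions. In 2 of the 4 groups the oocyte was matured inside its cumulus: the control group, and the CBX group, in which carbenoxolone (CBX), a blocker of gap junctions, was in the maturation medium. In the other two the cumulus cells had been stripped off before culture: the coculture group, in which denuded oocytes shared their medium with intact cumulus-oocyte complexes without touching them, and the denuded group, cultured on its own. Each group has 3 replicates after 1 h, 6 h and 22 h in maturation medium, which makes 36 libraries, and 3 further control libraries are labelled 0 h. Per the study's methods, cumulus cells were stripped from the enclosed oocytes with hyaluronidase after maturation, while a pronase step against the zona is described for the denuded ones, so the 2 sets were also handled differently before lysis. Effects of cumulus and of this handling cannot be told apart. The libraries hold oocyte RNA plus whatever follicular RNA stayed with it. No treatment, genotype or age beyond these is given in the labels. Here "enclosed" stands for the control and CBX groups together and "denuded oocytes" for the coculture and denuded groups together.

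A miRNA guides the silencing complex to messenger RNAs that match its seed, so a small RNA made in cumulus cells could act in the oocyte if it crossed over. Among the 7, 3 pairs are each transcribed from a shared locus. miR-143 and miR-145 are best known from mesenchymal and smooth muscle cells. miR-132 and miR-212 share their seed and are induced in granulosa cells by luteinising hormone. miR-221 and miR-222 also share their seed and repress the receptor KIT and the cell cycle inhibitor CDKN1B. miR-202 stands alone and is enriched in the gonads. In RefSeq gene order for the newer bovine assembly ARS-UCD2.0, MIR143 lies next to MIR145, MIR132 next to MIR212 and MIR221 next to MIR222. The mature sequences were not used here.

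The total count per library, known and predicted miRNAs together, ran from 11985 to 175429 with a median of 70069, and 3 libraries lay under 30000 (control 0 h replicate 1, CBX 22 h replicate 2 and control 6 h replicate 1). A single library with no count of a miRNA allows a level of up to 17.1 to 250.3 CPM (the count scaled to the total of its library), taking 3 counts as the limit, which covers counting error only. Levels are given as CPM scaled by the trimmed mean of M values (TMM). Together the members made up between 0.381% and 0.897% of the counts of known miRNAs in the 36 cultured libraries.

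The 6 detected members differed widely in level. miR-143 was the most abundant, at 1707 CPM ± 409 (SD, n = 36 libraries), the 39th of the known miRNAs, with 5164 counts over the 36 cultured libraries. miR-202 followed at 615 ± 331 CPM with 1804 counts, in all 36 libraries. miR-132 stood at 119 ± 70.3 CPM with 325 counts and was found in 34 libraries. These first members are thus measured in nearly every pool of oocytes, the last of them with a median of only 8 counts per library. miR-221 had 189 counts in 30 libraries (62.5 ± 61.9 CPM), miR-145 had 26 counts in 16 libraries and miR-222 had 23 counts in 14. miR-212 had no count in any of the 39 libraries, which over the 36 cultured libraries allows a level of up to 1.04 CPM. For miR-145 and miR-222 most libraries held 0 to 2 counts, and their values are described without a fold change from the fitted model.

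**Figure D1:**
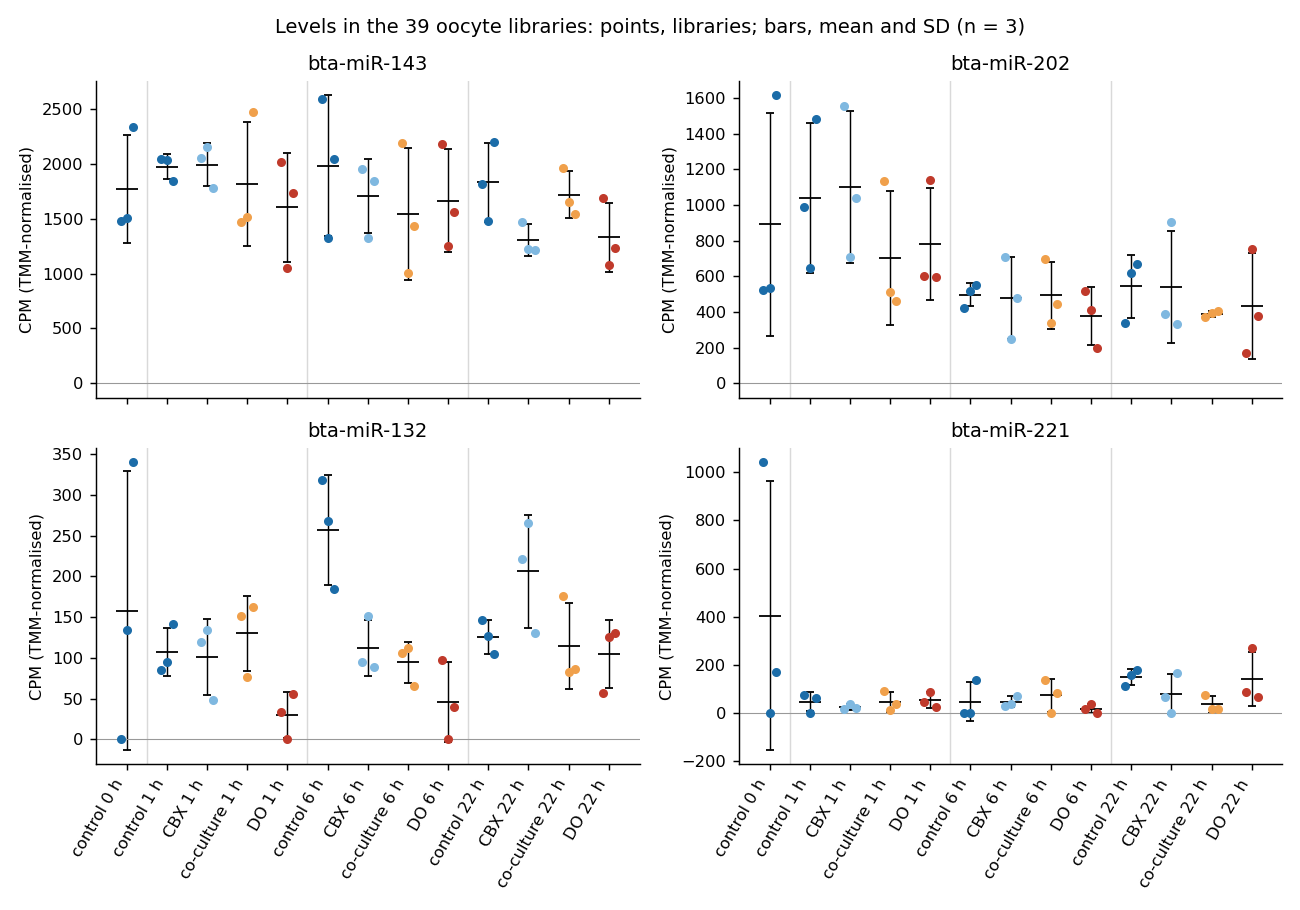
Level of bta-miR-143, bta-miR-202, bta-miR-132 and bta-miR-221 (y axis, TMM-normalised CPM) in each of the 13 conditions (x axis, group and time in h; DO is the denuded group). Points are libraries and bars are the mean and SD of 3 replicates, and conditions next to each other in the order of their means overlap, with miR-143 between 1009 and 2596 CPM in the cultured libraries.

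Partners from a shared locus were present at very unequal levels. Over the 36 cultured libraries miR-143 had 5164 counts and miR-145 had 26, so that miR-145 made up 0.501% of the pair (95% exact binomial interval 0.327 to 0.733, counting error only). miR-132 had 325 counts and miR-212 none, which allows miR-212 a share of up to 0.915% of that pair. miR-222 made up 10.8% of the pair of miR-221 and miR-222 (7 to 15.8), 23 counts against 189, and exceeded miR-221 in 2 libraries. In every pair the same partner led in the summed counts. Ligation and amplification differ between small RNA sequences, so counts of different miRNAs were compared in size only, and the part of library preparation in these ratios was not tested.

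**Figure D2:**
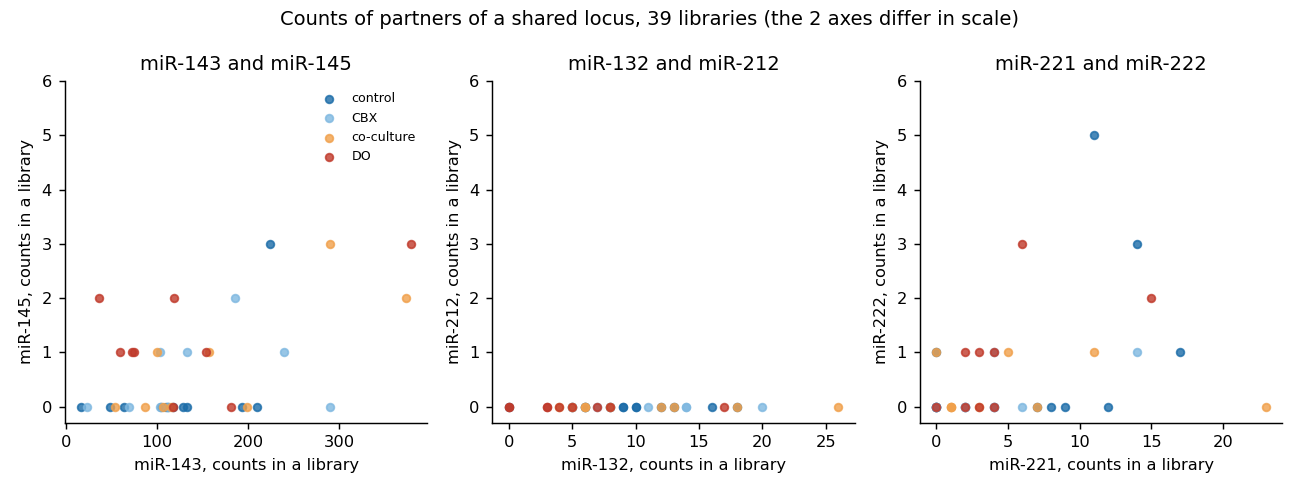
Counts of the more abundant partner (x axis) and of the less abundant one (y axis) in each of the 39 libraries, coloured by group (DO is the denuded group), for 3 pairs, miR-143 and miR-145, miR-132 and miR-212, and miR-221 and miR-222. miR-145 stays at 3 counts or fewer beside up to 379 counts of miR-143, miR-212 stays at 0, and miR-222 reaches 5 counts.

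The comparison that bears on a follicular origin sets denuded oocytes against enclosed ones. miR-143, miR-202, miR-132 and miR-221 had enough counts for the test over all times (edgeR's quasi-likelihood test, replicate number as a block, Benjamini-Hochberg adjustment over 600 miRNAs). Their fitted differences were all below 0, where 51.7% of all tested miRNAs were. Of these 4, none was called at an adjusted p under 0.05 with a log2 fold change of at least 1 in size, where 0.333% of all tested miRNAs were called. At an unadjusted p under 0.05 the count was 1 of 4, against 48 of 600 miRNAs (8%), and DESeq2 likewise called 0 of the 4. At 1, 6 and 22 h alone the members at an unadjusted p under 0.05 numbered 0, 1 and 0, where 5.09%, 7.44% and 5.04% of all tested miRNAs did, and DESeq2 called 0 members at each time and 2, 1 and 0 miRNAs in all. The 1 at 6 h was miR-132, which passed the count filter there only through the control libraries, where it was highest.

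miR-132, the hormone-induced granulosa miRNA, had the widest gap. In the 18 enclosed libraries its level ran from 47.8 to 318 CPM with a median of 132.1, and in the 18 denuded libraries from 0 to 176 CPM with a median of 84.6. Both libraries without a count were of the denuded group, and the 5 highest libraries were all enclosed (2 of them under 30000 counts in total), but the ranges overlapped. The fitted log2 difference, denuded minus enclosed, was -0.72 (SE 0.22, 95% interval -1.18 to -0.26), with an adjusted p of 0.21 by edgeR. Within the replicate numbers the log2 difference of the means was -0.55, -1.36 and -0.31, below 0 in all 3. An exchange of labels within replicate number and time gave a two-sided permutation p of 0.005, which was 0.12 after Benjamini-Hochberg adjustment over the 24 tests of this kind (6 members, all times together and each time). So the direction was shared by the replicates and the size did not pass either correction.

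By time, the gap in miR-132 was widest at 6 h. The control libraries held 318, 268 and 184 CPM at 6 h, the CBX libraries 94.4, 151 and 88.7, the coculture libraries 106, 112 and 66, and the denuded libraries 97.8, 0 and 39.4. Every control library lay above every library of the other three groups, CBX included, while CBX and coculture overlapped. How many of all miRNAs have a group set apart in this way was not counted. The control values rest on 6, 13 and 12 counts, and replicate 1 of them is among the libraries under 30000. For denuded against enclosed at 6 h, 0 of 3 tested members were called, as was 0% of 457 miRNAs, and miR-132 had a log2 difference of -1.24 (SE 0.44, edgeR adjusted p = 0.4). Without the libraries under 30000 counts that difference was -1.19 (edgeR adjusted p = 0.36). In both fits miR-132 passed the count filter only through the control libraries, where its level was highest. Neither value is therefore independent of the filter. At 1 h the denuded libraries held 33.5, 0 and 56.3 CPM of miR-132 and the coculture libraries 152, 77 and 162, the latter within or above the range of the enclosed ones (47.8 to 141 CPM). At 1 h all coculture libraries thus lay above the denuded group, whose values rest on 3, 0 and 5 counts. This separation was not counted over all miRNAs either. The denuded library without a count allows up to 91.81 CPM, and CBX replicate 3 was low too, at 47.8 CPM from 5 counts. The denuded mean of 30 CPM ± 28.3 (SD, n = 3) was the lowest of the 13 conditions. No pair with the denuded group could be tested for miR-132 at 1 h. At 22 h the mean of the control group lay below that of CBX, with overlap. The CBX libraries held 221.3, 265.9 and 129.7 CPM and the control libraries 145.9, 126.8 and 104.8, beside 176.1, 82.5 and 86.7 in coculture and 57.2, 126.1 and 131.4 in the denuded group. CBX against control, miR-132 had a log2 fold change of -1.30 (SE 0.58, edgeR adjusted p = 0.94) at 6 h and 0.63 (SE 0.35, edgeR adjusted p = 0.6) at 22 h, and this change between times was not tested. At 6 h miR-132 entered this pair too only through the control libraries.

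The muscle- and stroma-linked miR-143 was the most precisely measured member. Its level ran from 1215 to 2596 CPM (median 1844) in enclosed libraries and from 1009 to 2474 CPM (median 1555) in denuded ones. The 2 sets overlapped over nearly their whole range. The log2 difference was -0.14 (SE 0.09, 95% interval -0.33 to 0.05, edgeR adjusted p = 0.89). The interval leaves no room for a change of 2-fold in either direction. At 1, 6 and 22 h the log2 difference was -0.23, -0.23 and -0.05, with SEs of 0.19, 0.17 and 0.14.

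miR-202, the gonad-enriched member, ran from 246 to 1558 CPM (median 633) in enclosed and from 172 to 1143 CPM (median 453) in denuded libraries. Its log2 difference was -0.35 (SE 0.21, 95% interval -0.78 to 0.07, edgeR adjusted p = 0.83). The replicate-wise differences were -0.30, -0.07 and -0.73. All 3 were below 0, and the second was close to it. At 1 h the log2 difference was -0.54 (SE 0.30, edgeR adjusted p = 0.82), where 0 of 3 tested members and 0% of 530 miRNAs were called. These sizes rest on replicate 3, without which the difference was -0.17 over all times and -0.16 at 1 h, while without replicate 2 it was -0.51 and -0.88.

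miR-221 ran from 0 to 178 CPM (median 50.5) in enclosed and from 0 to 270 CPM (median 41) in denuded libraries. Its log2 difference of -0.20 had an SE of 0.43 and a 95% interval of -1.09 to 0.68, which holds both a 2-fold lower level and no change. Without replicate 3 the sign turned, to 1.18 over all times and 0.16 at 22 h. At 22 h, 0 of 4 tested members were called, where 0.202% of 496 miRNAs were, and miR-221 had a log2 difference of -0.65 (SE 0.55, edgeR adjusted p = 0.99). Its seed partner miR-222 had 12 counts in 6 of 18 enclosed libraries and 11 counts in 8 of 18 denuded ones. miR-145 was the only detected member with a higher mean in denuded oocytes, 12.4 CPM ± 14.5 (SD, n = 18) against 4.49 ± 8.06, from 18 counts in 11 libraries against 8 counts in 5. The permutation test gave p = 0.053 for miR-145, and 0.31 after adjustment over the 24 tests. In total 0 of those 24 tests passed at an adjusted p of 0.05; at a single time the smallest p the exact test can give is 0.0093.

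**Figure D3:**
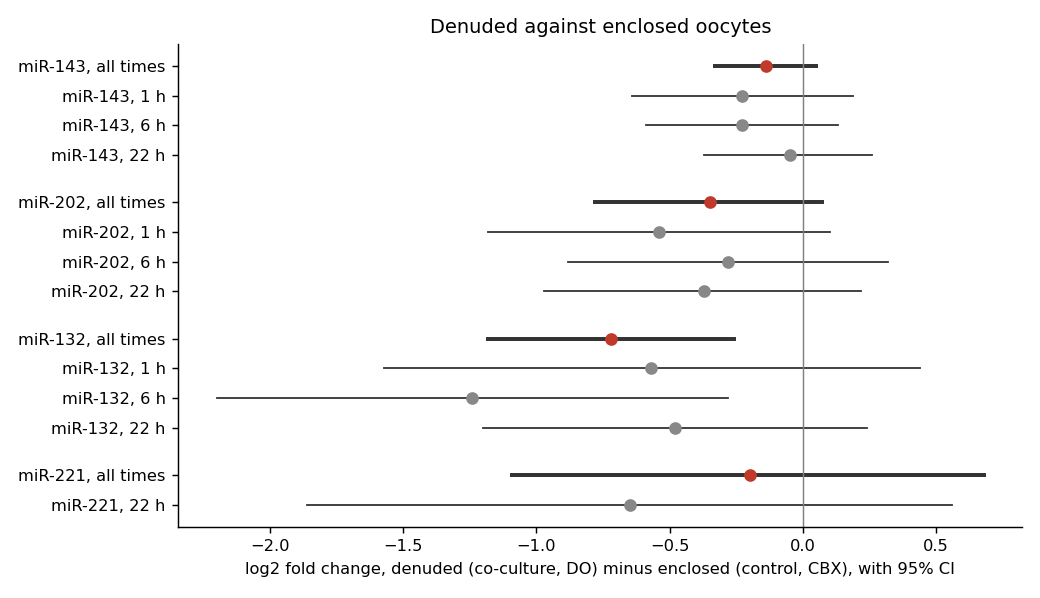
Fitted log2 fold change of denuded against enclosed oocytes (x axis) with its 95% interval for each tested member (y axis), over all times (red points, thick lines) and at 1, 6 and 22 h (grey points). The miR-143 intervals are the narrowest and all cross 0, while the miR-132 intervals lie wholly below 0 over all times and at 6 h, before adjustment for the number of miRNAs tested. The fit behind the 6 h interval is one that miR-132 entered only through the control libraries.

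The study's own design compares the 4 groups pair by pair at each time, 18 comparisons that share their groups. Over these comparisons the members passed the count filter 46 times and 0 were called, where 0.266% of the 7883 tests over all miRNAs were. At an unadjusted p under 0.05 there were 4 of 46, against 5.24% of all tests. These were miR-132 in control against coculture (log2 fold change -1.50) and control against denuded (-2.56), both at 6 h and sharing the control libraries, miR-202 in CBX against coculture at 1 h (-0.69) and miR-143 in coculture against denuded at 22 h (-0.44). Over the 18 comparisons the fitted log2 fold changes ran in both directions, between -0.48 and 0.39 for miR-143 and between -0.69 and 0.18 for miR-202. With 3 libraries a group, the members below miR-202 in level could rarely be tested: miR-132 was tested in 8 of the 18, miR-221 in 2, and the others in none. At 6 h miR-132 passed the filter only in pairs with the control group, where its level was highest. Its entries among the 4 of 46 are therefore not independent of the filter. miR-221 at 22 h, control against coculture, was called without the filter (-1.68, edgeR adjusted p = 0.048) and without replicate 1 (-3.33, edgeR adjusted p = 0.0048). Calls over all miRNAs in the 18 pairs also went up, from 21 to 88 without the filter and to 39 without replicate 1. In coculture at 22 h, replicates 2 and 3 held 1 count of miR-221 each.

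The levels over maturation time were compared next. Between 1 and 22 h, with the 4 groups averaged, 9.17% of 600 miRNAs had an adjusted p under 0.05 and 1.5% were also at a log2 fold change of 1 or more in size. miR-202 had an adjusted p of 0.023 by edgeR with a log2 fold change of -0.99 (SE 0.25, 95% interval -1.50 to -0.47), and so stayed just short of the fold threshold and was not called. It stood 13th of 600 miRNAs by p. The difference was -1.33 without replicate 2 and -1.07 without the libraries under 30000 counts, past both thresholds, and -0.64 and -0.97 without replicate 1 or 3, with edgeR adjusted p-values of 0.2 and 0.14.

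The lower level of miR-202 was in place by 6 h. Over the 12 libraries of a time its level ran from 460 to 1558 CPM (median 849) at 1 h, from 197 to 708 CPM (median 462) at 6 h and from 172 to 904 CPM (median 392) at 22 h. In the control group the 3 replicates held 988, 646 and 1485 CPM at 1 h, then 423.9, 515.8 and 552.6 at 6 h, and 340, 620 and 671 at 22 h. In the CBX group they held 1558, 711 and 1042 CPM at 1 h, 708, 246 and 479 at 6 h, and 387, 904 and 330 at 22 h. In both enclosed groups every 6 h library lay below every 1 h library. In the coculture group the values were 1138, 510 and 460 CPM at 1 h, 700, 336 and 445 at 6 h, and 372, 396 and 405 at 22 h. In the denuded group they were 603, 1143 and 597 CPM at 1 h, 518, 412 and 197 at 6 h, and 171.5, 756.5 and 377.8 at 22 h. Following each replicate number within its group, the level was lower at 6 h than at 1 h in 12 of 12 series, and lower at 22 h than at 1 h in 11 of 12. From 6 to 22 h it went up in 6 and down in 6. How many of all miRNAs show such separations or runs was not counted.

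The 1 to 6 h difference was -0.95 on the log2 scale (SE 0.25, edgeR adjusted p = 0.073; 0 of 4 members called, against 0.167% of 600 miRNAs), and from 6 to 22 h it was -0.04 (SE 0.26; 0 of 4 called, against 0%). A test chosen after these values were seen, an exact permutation of the signs of the 12 paired differences in CPM, gave a two-sided p of 0.00049 for 1 against 6 h, the smallest it can give, and 0.0088 after Benjamini-Hochberg adjustment over 18 tests (6 members, 3 pairs of times). For 1 against 22 h the exact p was 0.0039, adjusted 0.035. With any replicate number left out, miR-202 was lower at 6 h in 8 of 8 series each time. The exact p was then 0.0078, the smallest that 8 series allow, and adjusted over 18 tests it lay between 0.07 and 0.14, so the adjusted value with a number left out says nothing about stability. The 4 groups of a replicate number may share a pool of ovaries, which the labels do not state, and the 12 series may then not be independent.

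**Figure D4:**
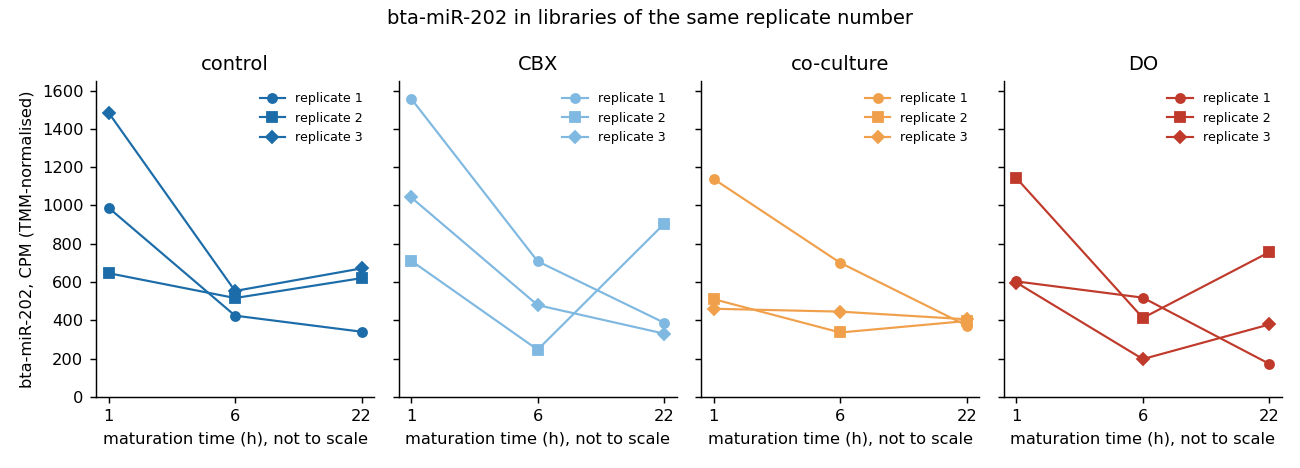
Level of bta-miR-202 (y axis, TMM-normalised CPM) at 1, 6 and 22 h of maturation (x axis, not to scale) in each group (DO is the denuded group), with lines joining libraries of the same replicate number. All 12 lines go down from 1 to 6 h, and CBX replicate 2 is the only one that ends above its 1 h value.

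The difference of miR-202 was below 0 with and without cumulus cells. Within a group, the log2 difference between 22 and 1 h was -1.02 in control (SE 0.48), -1.25 in CBX (SE 0.51), -0.81 in coculture (SE 0.50) and -0.88 in the denuded group (SE 0.51), with edgeR adjusted p-values of 0.98, 0.2, 0.84 and 0.5. None of the 16 tests of a member within a group was called by edgeR, where 0.292% of all 2400 tests were, or by DESeq2, and 4 of the 16 had an unadjusted p under 0.05, where 8.92% of all tests did. These were miR-202 in control and CBX, miR-143 in CBX and miR-132 in the denuded group (1.43, SE 0.65). The change of the denuded against enclosed difference between 1 and 22 h, fitted as an interaction, was 0.28 for miR-202 (SE 0.50, 95% interval -0.74 to 1.31). No member was called for the interaction, and 0% of 600 miRNAs were, with 2.67% at an unadjusted p under 0.05 and members' edgeR adjusted p-values of 0.97 or above. The interval is wide enough to hold a difference of 2-fold between the enclosed and denuded courses.

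miR-221 and miR-222 had more counts at 22 h than at 1 h. The 12 libraries of each time held 37, 52 and 100 counts of miR-221 at 1, 6 and 22 h in similar summed totals (929515, 983078 and 985764 counts). As CPM of the summed libraries this was 39.8 (95% exact Poisson interval 28 to 54.9), 52.9 (39.5 to 69.4) and 101 (82.5 to 123). Both this interval and the next cover counting error only. The log2 difference of miR-221 from 1 to 22 h was 1.28 (SE 0.50, 95% interval 0.25 to 2.30, edgeR adjusted p = 0.099), and its level was higher at 22 h in 9 of 12 series. The 3 control libraries at 0 h held 20 counts of miR-221, given further on, and 0 h against 1 h could not be tested for it. In control, all 3 libraries at 22 h (113.5 to 178.1 CPM) lay above the 3 at 1 h (74.4, 0 and 62.5 CPM), whereas coculture went from 88.5, 9.63 and 37.3 to 74.5, 16.5 and 14.5 CPM. How many of all miRNAs separate like this in control was not counted.

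Its seed partner miR-222 had no count in any of the 12 libraries at 1 h, nor in the 3 at 0 h. It had 6 counts in 6 libraries at 6 h and 17 counts in 8 libraries at 22 h. None at 1 h allows up to 3.23 CPM, and at 22 h the summed libraries held 17.2 CPM (95% exact Poisson interval 10 to 27.6). Of the 17 counts, 9 lay in the control libraries (3, 5 and 1) and 6 in the denuded ones (3, 2 and 1), against 1 each in CBX and coculture. It was higher at 22 h than at 1 h in 8 of 12 series and lower in none, with a two-sided exact permutation p of 0.0078, adjusted 0.047 over the same 18 tests. For miR-221 the same test gave 0.019, adjusted 0.083. Since no library at 1 h held a count of miR-222, no series could go down. With 8 series that changed, 0.0078 was then the only p the test could give, so it does not weigh rise against fall. With a replicate number left out 5 or 6 changed, for which 0.062 and 0.031 are the smallest exact p-values. Adjusted over 18 tests, these permutation p-values lay between 0.14 and 0.25.

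**Figure D5:**
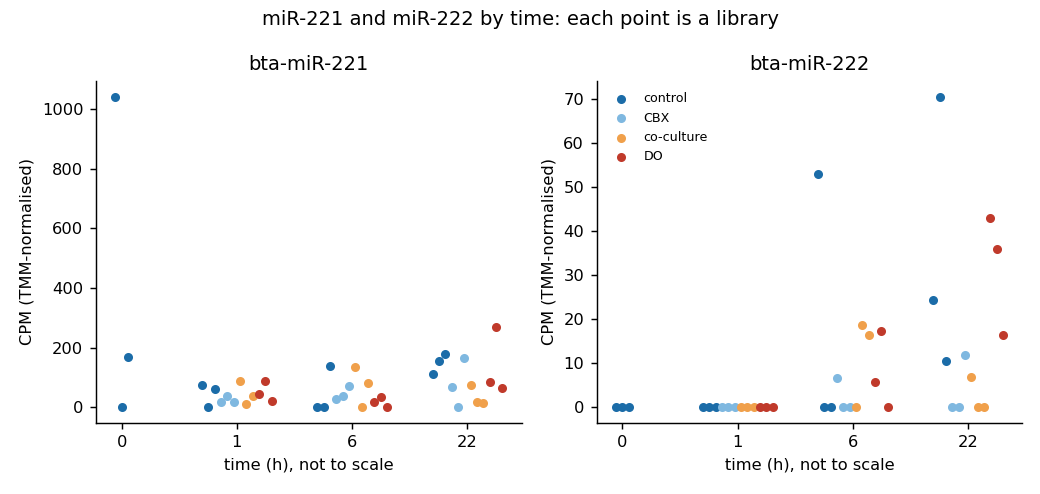
Level of bta-miR-221 and bta-miR-222 (y axis, TMM-normalised CPM) in each library by time (x axis, not to scale), coloured by group (DO is the denuded group). All 15 libraries at 0 and 1 h sit at 0 for miR-222, and the point at the top left of the miR-221 panel is control 0 h replicate 1, the smallest library.

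The other members shifted less with time. miR-143 was lower at 22 h than at 1 h by a log2 difference of -0.31 (SE 0.11, edgeR adjusted p = 0.078), with CBX holding 2055, 2151 and 1779 CPM at 1 h and 1471, 1223 and 1215 at 22 h. These CBX libraries did not overlap, which was not counted over all miRNAs, and the log2 difference in CBX was -0.68 (SE 0.23, edgeR adjusted p = 0.16). miR-132 was higher at 22 h by 0.61 (SE 0.27, edgeR adjusted p = 0.17), in 10 of 12 series. miR-145 had 7, 9 and 10 counts at 1, 6 and 22 h, and miR-212 had none at any time.

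In immature control oocytes labelled 0 h, miR-143 stood at 1477, 1504 and 2340 CPM and miR-202 at 521, 537 and 1616 CPM, both overlapping the 1 h controls. Against 1 h the log2 difference was 0.16 (SE 0.32) and 0.27 (SE 0.39), each with an edgeR adjusted p of 0.99 (0 of 2 members called, against 0% of 409 miRNAs). miR-221 had 12, 0 and 8 counts at 0 h, or 1042, 0 and 170 CPM, the first from the library with 11985 counts in total, and its mean of 404 CPM ± 559 (SD, n = 3) was the highest of the 13 conditions. miR-132 stood at 0, 134 and 340 CPM, from 0, 10 and 16 counts, a range that held the 85 to 141 CPM of the 1 h controls. miR-145, miR-222 and miR-212 had no count at 0 h. Across the 13 conditions no 2 neighbours in the order of mean levels were separated by their libraries, for any of the 7 members, miR-212 being 0 throughout. The lowest condition lay wholly below the highest for miR-132, miR-143, miR-202 and miR-222, but not for miR-145, miR-212 and miR-221. Neither count was made over all miRNAs, so neither is read as a trait of the members.

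Other miRNAs linked to granulosa and cumulus cells were listed for comparison: miR-21-5p, miR-224, miR-383, miR-378, miR-375, miR-183, miR-96, miR-182, miR-34a, miR-125b, miR-155, miR-503-5p and miR-424-5p. All 13 were detected, the lowest being miR-375 with 3 counts. Of the 10 tested, 0 were called for denuded against enclosed and 7 lay below 0, with a median log2 difference of -0.11 beside -0.28 for the 4 members and 0.00 for all 600 miRNAs. The groups pooled as enclosed differed at 22 h, where CBX against control had a median of -0.61 (8 of 10 below 0, 0 called; all miRNAs -0.03). At 1 and 6 h that median was 0.00 and -0.05. The denuded group against CBX at 22 h had a median of 0.19, with 0 of 8 below 0. Among the listed miRNAs, miR-155, known from immune and activated cells, had a log2 difference of -0.86 for denuded against enclosed (SE 0.29, edgeR adjusted p = 0.32). In the 18 comparisons of groups, 2 of 165 tests of this list were called, where 0.266% of all 7883 tests were. Both were of miR-155, which was lower in the denuded group than in CBX at 6 h (-1.14, edgeR adjusted p = 0.0054) and lower in coculture than in control at 22 h (-1.67, edgeR adjusted p = 0.0021). In the latter, miR-21-5p had a log2 fold change of -0.86 (edgeR adjusted p = 0.016), short of the fold threshold. The study itself reports no differentially expressed miRNA between control and coculture at any time. Nor does it list miR-155 for CBX against denuded at 6 h, and the cause of these differences was not tested. It names miR-21-5p as lower in CBX than in control at 22 h, where 0 of this list were called here. From 1 to 22 h, miR-155 rose by 3.71 on the log2 scale (edgeR adjusted p = 1.6e-07). miR-21-5p was higher by 0.48 and miR-424-5p lower by 0.79 in log2 units, with edgeR adjusted p-values of 0.023 and 0.039 but short of the fold threshold. The summed level of this list was 10888 to 17218 CPM in enclosed and 10400 to 15147 CPM in denuded libraries at 1 h, and 13697 to 30313 against 14764 to 23955 CPM at 22 h.

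Lists for other cells that could cling to an oocyte were also read. Of 10 miRNAs of stroma and vessels, among them miR-199a and miR-126, all were detected and 0 of the 4 tested were called for denuded against enclosed. Their summed level at 1 h was 1459 to 2654 CPM in enclosed and 1127 to 2428 CPM in denuded libraries. It overlapped at 22 h too, at 1062 to 1425 against 1150 to 1567 CPM. The median log2 difference from 1 to 22 h over these 4 was -0.42, and their part in the miR-202 difference was not tested. Of 7 blood cell miRNAs, 6 were detected and miR-142-3p was at 0, while 0 of 1 tested was called. Most of their sum was miR-150 alone, at 440 CPM ± 123 (SD, n = 36 libraries). Apart from miR-223, given below, the others had means of 17.5 CPM or less. The sum of the list ranged from 106 to 754 CPM in enclosed and from 282 to 756 CPM in denuded libraries, apart from 1 library. This was replicate 2 of the denuded group at 6 h, with 3180 CPM, of which miR-223 made up 2664, and it is also the 6 h library without a count of miR-132. The part of such cells in that value was not tested. Without replicate 2 the miR-132 difference of denuded against enclosed was -0.47 over all times and -0.95 at 6 h (edgeR adjusted p = 0.82 and 0.76). In such pooled samples fewer attached cells and less RNA per cell cannot be told apart.

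The course of each well-counted member was also set beside all other miRNAs with enough counts. Over the 12 condition means, miR-143 was most like predicted miR-948 (Pearson r = 0.88), miR-30e-5p (0.84) and miR-2285bf (0.84), among 300 candidates. Over the 36 libraries these correlations were 0.57, 0.44 and 0.59. miR-202 was most like predicted miR-751 (0.83), predicted miR-66 (0.76) and predicted miR-323 (0.76), which over the 36 libraries fell to 0.49, 0.35 and 0.35. Between the members, miR-143 and miR-202 had an r of 0.56 over the 12 conditions and 0.15 over the 36 libraries, and miR-132 with miR-202 had -0.06 and -0.01. These are descriptions of conditions that share their libraries' scaling.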

How the data were processed

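The authors extracted total RNA from pooled oocytes and made libraries with the QIAseq miRNA kit, whose molecular identifiers were used to drop duplicate reads. Per the labels, FastQC 0.11.9 and UMI-tools 1.1.2 were used with the genome build ARS-UCD1.2, and known and predicted miRNAs were counted with miRPro per the study's methods. The deposited values are raw counts per mature miRNA, not normalized, in 2 tables that were joined here.

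Groups came from the sample titles. Counts were fitted with edgeR 4.0.16 (R 4.3.3) by the quasi-likelihood F-test in its version 3 form, as in the study's methods, with TMM scaling, a filter on low counts (minimum count 10, minimum total 15) and the replicate number as a block, since the methods name the pool of ovaries as a batch; p-values were adjusted over all miRNAs tested by the Benjamini-Hochberg method. A call needed an adjusted p under 0.05 and a log2 fold change of at least 1 in size. DESeq2 1.42.0 was an alternative. For all 18 group pairs, deviations of same-numbered libraries correlated with a mean of 0.0957 to 0.427, and 48 of 54 single correlations were over 0.1. No 2 replicates were identical (chi-square per degree of freedom 3.86 to 17.1 over 39 pairs). Per the methods the oocytes of a pair of repeats of the experiment were joined for each library. The labels do not tie a replicate number to an ovary pool; it was taken as one here.

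The rule was to name the 7 members throughout, with the 3 most similar miRNAs for members of at least 10 counts in the median. The members, lists and tests were chosen with earlier results of these data known. No column of per-sample values was left unused. Counting intervals are 95% intervals.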

Additional observations from a re-analysis of the deposited data

Results flagged for a closer look

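In 34 sets of 6 libraries (each member with a count in enclosed or denuded oocytes at each time), the highest or lowest library was checked by its gap to the nearest other, and 5 sets held a library that stood apart. Chance gives about 1 in 20 for normally distributed values, a rate that cannot be carried over to sets of few counts, where a lone count among zeros always stands apart. In 4 of them the library held 5 counts or fewer. miR-221 in denuded oocytes at 22 h was highest in denuded replicate 2, at 270 CPM from 15 counts, with the next library at 85.8 CPM. miR-222 in enclosed oocytes at 22 h was highest in control replicate 2, at 70.5 CPM from 5 counts. miR-222 in enclosed oocytes at 6 h stood at 53 CPM in control replicate 1, from 1 count in a library of 20180. miR-145 stood at 58.6 CPM from 2 counts in denuded replicate 2 at 1 h, and at 17.7 CPM from 1 count in CBX replicate 3 among the enclosed libraries at 6 h.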

How the results depend on the processing

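Alternatives were the model without the replicate block, other size factors (RLE), DESeq2, no filter on low counts, known miRNAs only, the quasi-likelihood form of edgeR 4, no fold threshold, 1 fit of all 36 libraries, each replicate number left out and, chosen after the library totals were seen, the fits without the libraries under 30000 counts. Of 127 counts, of called members or of denuded against enclosed permutation tests passed, 121 were as reported. Between 1 and 22 h the count was 2 (miR-202 and miR-221) with the edgeR 4 form, and 1 (miR-202) without the fold threshold and without the libraries under 30000 counts, and it lay between 0 and 1 with a replicate number left out. Calls over all miRNAs were 9 as reported, 14, 55 and 6 in these settings, and 1 to 9 with a replicate number left out. Over the 18 group pairs the count of members was 1 (miR-221) without the low-count filter, and between 0 and 1 with a replicate number left out. There the calls over all miRNAs were 88 without the filter and 36 to 84 with a replicate number left out. Without the replicate block the pairing was ignored: members called remained at 0 in each comparison, the log2 difference of miR-132 for denuded against enclosed was -0.73, but calls over all miRNAs in the 18 group pairs went from 21 to 4.

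Of 576 single values, 18 turned their sign, none of them called. For denuded against enclosed these were miR-221 over all times and at 22 h (ranges with a replicate number left out -0.75 to 1.18 and -1.48 to 0.16) and miR-143 at 22 h (0.01 without the filter; -0.14 to 0.04 over the omissions). From 1 to 6 h they were miR-143 (-0.36 to 0.02) and miR-221 (-1.26 to 0.36), each over the 3 omissions. From 6 to 22 h they were miR-202 with DESeq2 (0.01) and over the omissions (-0.45 to 0.44). Within groups from 1 to 22 h, the omissions gave -0.04 to 0.57 for miR-132 and -0.36 to 0.03 for miR-143 in control, -0.53 to 0.20, -0.34 to 0.19 and -0.54 to 0.08 for miR-132, miR-143 and miR-221 in coculture, where miR-221 was also 0.07 with the edgeR 4 form. For the interaction they were miR-132 with known miRNAs only (-0.09) and, over the omissions, miR-132 (-0.22 to 0.34), miR-143 (-0.05 to 0.54) and miR-202 (-0.14 to 0.49). The cause was not tested. Over its alternatives the log2 difference of miR-202 from 1 to 22 h ran from -1.33 to -0.64 (edgeR and DESeq2 adjusted p 0.0053 to 0.2), and that of miR-132 for denuded against enclosed from -0.97 to -0.47. Depth limits miR-145, miR-212 and miR-222 most, at 0 to 5 counts a library.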
